A study of Rattus norvegicus with 26 samples.

Results

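Transcripts that were low in neuronal cultures and higher in every glial culture of newborn rat cortex are described here. They were taken from 16 culture arrays as the genes whose mean log2 level in neuronal cultures lay at least 1 unit, a 2-fold difference, below the mean of astrocyte, of oligodendrocyte and of microglial cultures alike. Of 14217 measured genes, 1015 met this rule, which is 7.14%. The study hybridised RNA of primary cultures, grown from cerebral cortices of rat pups on postnatal day 1, to Affymetrix arrays, with 4 biological replicates each of neuronal (N), astrocyte (A), oligodendrocyte (O) and microglial (M) cultures. A further 10 arrays carried mixtures of the same RNA. Age is labelled for every culture but microglial culture 4. The labels name no strain, genotype, treatment or time in culture for any culture and do not say whether replicates came from separate litters, so errors cover the spread between these arrays only. In RNA from a whole culture, fewer cells that hold a transcript and less of it per cell cannot be told apart.

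Cortical neurons leave the cell cycle before they mature, and a mature neuron does not divide. Astrocytes, oligodendrocyte precursors and microglia from newborn cortex keep dividing in culture. Maturing neurons turn down several proteins that repress neuronal splicing or transcription in progenitors, and at rest they make little of the class I antigen presentation machinery. Glia, and microglia above all, are rich in lysosomes and in the actin machinery of spreading and phagocytosis.

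Promoter sequence was a feature that the rule did not use. The 250 bases before the start of each gene were searched on both strands, with overlaps allowed, for 5 motifs. CCAAT, which reads ATTGG on the other strand, is the box bound by NF-Y. TTTGAA, which reads TTCAAA there, is the cell cycle homology element of genes used in mitosis. TTCCCGC is a site of E2F factors, CACGTG is the core of the lysosomal gene element bound by TFEB, and the interferon-stimulated response element was taken as GAAA repeated after a gap of 2 bases. RefSeq (build GRCr8) gave promoters for 858 of the 1015 genes low in neuronal cultures, for 11700 of all 14217 measured genes and for 27457 genes in all. CCAAT was held by 37.1% of the genes low in neuronal cultures, by 35.1% of measured genes and by 34.29% of all promoters. The shares for TTTGAA were 13.99% of the genes low in neuronal cultures, 10.9% of measured genes and 16.03% of all promoters, and for CCAAT and TTTGAA together 7.34%, 4.04% and 5.76%. They were 8.39%, 6.08% and 3.58% for TTCCCGC, 8.63%, 7.85% and 5.80% for CACGTG and 6.29%, 2.66% and 3.29% for the interferon element, in the same order of gene sets. The counts by function cover only listed genes that limma called lower in neuronal cultures than in each glial culture (criteria below). Listed genes that were not called were not counted. Among 20 such mitosis genes with a promoter, 17 held CCAAT and 9 held both CCAAT and TTTGAA. Of 17 DNA replication genes 12 held CCAAT, 4 TTCCCGC and 1 TTTGAA. Of 18 lysosome genes 4 held CACGTG and 9 held CCAAT. The interferon element was held by 4 of 7 genes of the class I pathway. It was held by 1 of 11 genes of interferon, cytokine and NF-kB signalling. No test was run on these shares, and a match is a run of letters, not a measured binding site.

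The sequences below show how these letters are laid out in genes that carry the main groups, and were chosen after the matches were seen. Capitals mark only the motifs named for each gene. For the 4 cell division genes they mark CCAAT and TTTGAA on either strand. Cdk1 lies at chr20:19265043-19265292 (plus strand), with CCAAT matches that begin 210, 81 and 49 bases before the start and TTTGAA matches at 72 and 16. Ccnb2 lies at chr8:79981659-79981908 (minus strand), with CCAAT at 134, 101 and 68 bases and TTTGAA at 214 and 43. Top2a lies at chr10:84473094-84473343 (minus strand) and Cks2 at chr17:13727520-13727769 (minus strand). In all 4 the TTTGAA match nearest to the start lay closer to it than every CCAAT match.
Cdk1: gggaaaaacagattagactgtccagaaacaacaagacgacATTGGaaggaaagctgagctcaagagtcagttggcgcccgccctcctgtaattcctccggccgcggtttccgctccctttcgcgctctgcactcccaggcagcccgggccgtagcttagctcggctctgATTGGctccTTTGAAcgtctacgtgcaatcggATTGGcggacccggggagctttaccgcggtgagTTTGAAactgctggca
Ccnb2: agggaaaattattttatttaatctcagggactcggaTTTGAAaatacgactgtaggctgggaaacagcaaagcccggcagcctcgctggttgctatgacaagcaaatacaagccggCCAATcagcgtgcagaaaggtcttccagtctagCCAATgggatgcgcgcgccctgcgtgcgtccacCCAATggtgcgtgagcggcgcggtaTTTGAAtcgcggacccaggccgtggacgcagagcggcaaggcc
Top2a: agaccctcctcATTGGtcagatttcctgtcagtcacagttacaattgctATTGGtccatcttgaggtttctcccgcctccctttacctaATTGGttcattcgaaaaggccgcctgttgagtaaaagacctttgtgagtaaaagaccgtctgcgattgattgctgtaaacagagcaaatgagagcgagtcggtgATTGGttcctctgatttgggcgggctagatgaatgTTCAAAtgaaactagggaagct
Cks2: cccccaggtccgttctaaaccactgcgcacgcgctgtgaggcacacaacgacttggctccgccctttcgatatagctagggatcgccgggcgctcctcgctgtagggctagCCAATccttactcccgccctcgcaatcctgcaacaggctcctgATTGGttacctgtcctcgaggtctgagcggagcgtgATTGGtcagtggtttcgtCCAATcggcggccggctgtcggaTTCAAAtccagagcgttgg

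The class I gene B2m lies at chr3:129549080-129549329 (plus strand) and the peptide transporter gene Tap1 at chr20:4668544-4668793 (minus strand). Capitals mark the interferon element on either strand. The lysosomal membrane gene Lamp1 lies at chr16:83075064-83075313 (minus strand) and the protease gene Ctsd at chr1:206968822-206969071 (minus strand), and capitals mark CACGTG.
B2m: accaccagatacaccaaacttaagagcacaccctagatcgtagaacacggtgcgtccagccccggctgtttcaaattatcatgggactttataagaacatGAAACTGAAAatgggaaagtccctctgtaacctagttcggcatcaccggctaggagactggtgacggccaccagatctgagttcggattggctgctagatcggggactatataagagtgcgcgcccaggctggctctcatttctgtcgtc
Tap1: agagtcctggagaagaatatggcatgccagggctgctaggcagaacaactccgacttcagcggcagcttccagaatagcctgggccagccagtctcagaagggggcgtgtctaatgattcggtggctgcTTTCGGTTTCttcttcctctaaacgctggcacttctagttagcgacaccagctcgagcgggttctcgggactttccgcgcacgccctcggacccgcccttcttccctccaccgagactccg
Lamp1: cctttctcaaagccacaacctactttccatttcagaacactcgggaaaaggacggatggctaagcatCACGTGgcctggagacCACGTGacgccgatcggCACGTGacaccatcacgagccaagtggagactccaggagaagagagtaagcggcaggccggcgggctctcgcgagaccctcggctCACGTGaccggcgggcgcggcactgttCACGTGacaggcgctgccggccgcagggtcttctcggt
Ctsd: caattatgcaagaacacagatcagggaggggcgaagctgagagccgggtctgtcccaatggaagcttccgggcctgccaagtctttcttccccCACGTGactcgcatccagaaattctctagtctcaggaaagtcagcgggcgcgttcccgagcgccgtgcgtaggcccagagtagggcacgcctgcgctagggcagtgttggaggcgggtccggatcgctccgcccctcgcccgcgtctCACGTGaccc

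The culture labels were checked first on marker genes. Of 15 neuronal markers 13 were called above every glial culture by limma (adjusted p under 0.05 and a difference of at least 1 in all 3 contrasts, as met by 8.22% of all genes), the others being Map2 and Elavl3. Their mean was 10.61 in neuronal, 5.54 in astrocyte, 6.58 in oligodendrocyte and 5.82 in microglial cultures. Microglial markers averaged 4.60 to 4.81 in neuronal arrays, 4.78, 6.13, 6.26 and 4.66 in astrocyte arrays 1 to 4, 8.43 to 9.44 in oligodendrocyte arrays and 10.81 to 11.41 in microglial arrays. Oligodendrocyte markers averaged 5.33 in neuronal, 5.85 in astrocyte, 10.42 in oligodendrocyte and 8.07 in microglial cultures. The 5 precursor markers, of which 4 were measured, averaged 6.09 in neuronal, 6.76 in astrocyte, 9.34 in oligodendrocyte and 7.88 in microglial cultures. Astrocyte markers averaged 7.15, 7.88, 9.11 and 8.89 in the neuronal arrays, against 10.37, 10.08, 10.05 and 9.36 in the astrocyte arrays. Their culture means were 8.26 in neuronal, 7.46 in oligodendrocyte and 6.38 in microglial cultures. Neuronal arrays 3 and 4 thus carried more astrocyte transcript than neuronal arrays 1 and 2. The precursor markers split the same way, at 5.52, 5.67, 6.78 and 6.41 in neuronal arrays 1 to 4, so the split was not confined to astrocyte markers. Fibroblast markers stood at 8.44 in astrocyte array 4, against 6.29 to 6.37 in the other astrocyte arrays, and endothelial markers stayed between 3.81 and 4.64 in all arrays. Microglial array 4 is described in one label as a mixture and in the title and cell type as microglia, and without it 1009 genes met the rule.

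The rule rests on differences of means, so the differences are given as a description. Each gene's neuronal mean was set against the glial culture with the lowest mean for that gene, which for the 1015 genes is also the nearest. It lay 1.62 units (median) below that lowest glial culture, against a median of 0.09 above it over all genes. Of the 1015 genes, 321 lay at least 2 units below every glial culture, 94 at least 3 and 20 at least 4, a 16-fold difference. The lowest glial culture was the oligodendrocyte culture for 430 genes, the astrocyte culture for 384 and the microglial culture for 201, and the highest was the microglial culture for 482, the astrocyte culture for 310 and the oligodendrocyte culture for 223. The 3 glial means lay within 1 unit of each other for 543 genes and spread over more than 2 for 180. Limma called 983 of the 1015 lower than each glial culture, as it did 6.91% of all genes, and neuronal arrays lay below every glial array for 964, as for 15.3% of all genes. Both counts follow from the rule. The neuronal mean of 373 of them lay below 5.25, the lowest median of any culture array, where background compresses differences, so folds for such genes are lower bounds. The same rule gave 229 genes low in astrocyte cultures, 38 low in oligodendrocyte cultures and 291 low in microglial cultures.

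**Figure D1:**
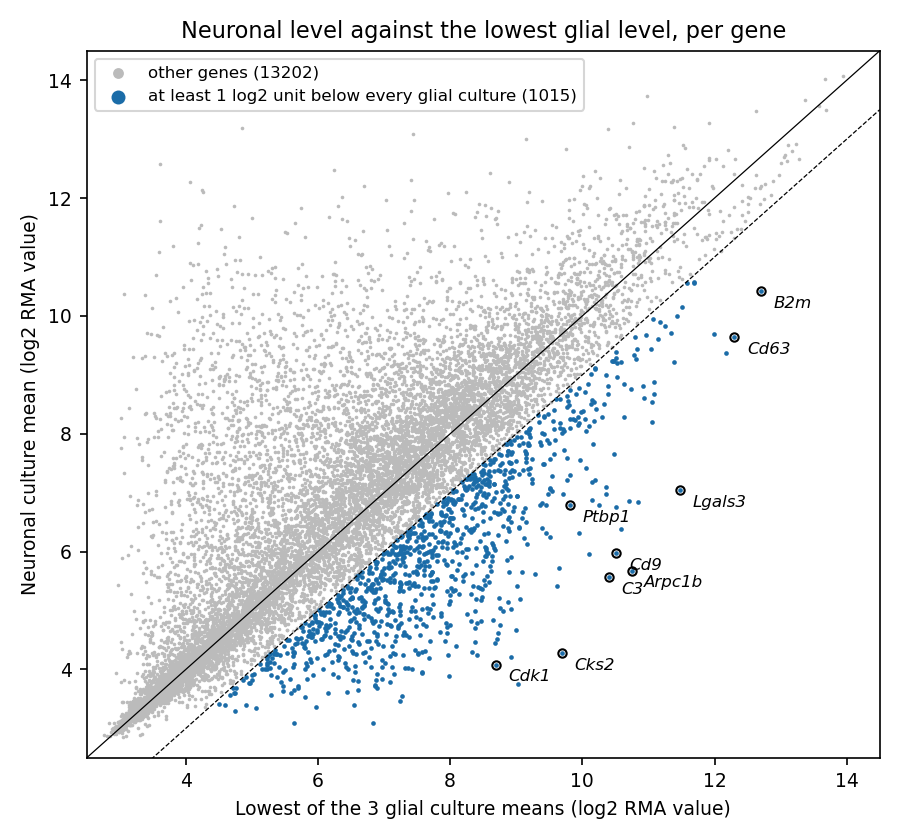
Neuronal culture mean (vertical axis, log2 RMA value, n = 4 arrays) against the lowest of the 3 glial culture means (horizontal axis, log2 RMA value) for each of 14217 genes. The solid line marks equal levels and the dashed line 1 unit less in neuronal cultures. The 1015 genes on or below the dashed line reach down to a difference of -5.41 for Cks2. Labels mark Cks2, Cdk1, Arpc1b, C3, Cd9, Lgals3, Ptbp1, Cd63 and B2m among them.

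At the threshold, values on either side were alike. The closest inside were Mob3a, Smim11, Nthl1 (a DNA glycosylase) and Ccdc17, and the closest outside Usp3 (a ubiquitin protease), Ptpn18 (a tyrosine phosphatase), Erp44 (a chaperone of the secretory pathway) and Tedc1. Mob3a averaged 6.80 ± 0.24 in neuronal cultures, against 7.81 in astrocyte cultures (SD, n = 4), and Usp3 6.35 ± 0.30 in neuronal cultures, against 7.35 in astrocyte cultures. All 8 differences from the lowest glial culture round to -1.0.

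Cell division genes stood furthest apart. Cks2, a small subunit of cyclin-dependent kinases, read 4.47, 4.66, 4.17 and 3.82 in neuronal arrays 1 to 4, against 9.23, 9.99, 9.88 and 9.96 in astrocyte arrays, 9.46, 9.61, 9.72 and 9.96 in oligodendrocyte arrays and 9.79, 9.51, 9.45 and 10.27 in microglial arrays. Every neuronal array lay far below every glial array, and the glial cultures overlapped each other. The difference from the lowest glial culture was -5.41 ± 0.22 (SE), a fold of at least 42.5. Pclaf, a clamp-binding protein of DNA replication, averaged 3.76 ± 0.16 in neuronal cultures, against 9.03 ± 0.40 in astrocyte, 9.30 ± 0.16 in oligodendrocyte and 9.35 ± 0.25 in microglial cultures (SD, n = 4). Cdk1, the kinase that starts mitosis, read 3.89, 4.12, 4.41 and 3.90 in neuronal arrays, against 9.07 to 9.63 in astrocyte, 8.53 to 8.99 in oligodendrocyte and 8.82 to 9.12 in microglial arrays. Its neuronal and glial arrays were more than 4 units apart.

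Of the 25 listed mitosis genes 24 were measured, and 24 were called lower in neuronal cultures than in each glial culture, none higher. Their median difference from the lowest glial culture was -3.0. They act at successive steps. Among the kinases and cyclins, Ccnb2 averaged 4.44 in neuronal, 8.90 in astrocyte, 8.68 in oligodendrocyte and 8.91 in microglial cultures, and Ccna2 3.09 in neuronal, 6.84 in astrocyte, 7.28 in oligodendrocyte and 7.32 in microglial cultures. Plk1, a kinase of spindle poles, had the smallest difference of the list, with 6.34 in neuronal and 7.61 in astrocyte cultures. Among spindle and chromosome proteins, Top2a, which untangles DNA, averaged 4.67 in neuronal, 9.13 in astrocyte, 9.0 in oligodendrocyte and 9.13 in microglial cultures. Nusap1, a microtubule bundler, averaged 4.24 in neuronal and 8.97, 8.41 and 8.54 in astrocyte, oligodendrocyte and microglial cultures. The cytokinesis genes Prc1, Ect2 and Racgap1 averaged 4.99, 3.88 and 4.83 in neuronal cultures, and no less than 8.80, 7.98 and 8.64 in any glial culture. Ube2c, which marks mitotic proteins for destruction, varied little between neuronal arrays, at 4.63 ± 0.02 in neuronal cultures, against 8.80, 8.72 and 8.91 in astrocyte, oligodendrocyte and microglial cultures.

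Other genes among the 25 with the largest differences belonged to no single list. Ggta1, which adds galactose to surface glycans, averaged 4.20 ± 0.06 in neuronal, 8.92 ± 0.93 in astrocyte, 8.92 ± 0.51 in oligodendrocyte and 9.12 ± 0.62 in microglial cultures (SD, n = 4). The galectin Lgals3 read 6.09, 6.69, 7.50 and 7.90 in neuronal arrays, against 10.26 or more in each glial array. The early response gene Ier3 averaged 5.72 in neuronal and 9.64 in oligodendrocyte cultures.

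The proliferation antigen gene Mki67 read 3.82 to 4.04 in neuronal arrays, against 6.71 to 7.94 in astrocyte, 7.83 to 8.40 in oligodendrocyte and 8.04 to 9.21 in microglial arrays. The mean over the mitosis list was 4.39 to 4.53 in neuronal arrays, against 7.30 to 8.06 in astrocyte, 7.53 to 7.99 in oligodendrocyte and 7.52 to 8.06 in microglial arrays. Unlike the astrocyte markers, it did not separate neuronal arrays 1 and 2 (4.39 and 4.53) from 3 and 4 (4.44 and 4.45). These means lay below 5.25, where background compresses differences, so they cannot decide whether mitosis transcripts differed between the pairs.

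**Figure D2:**
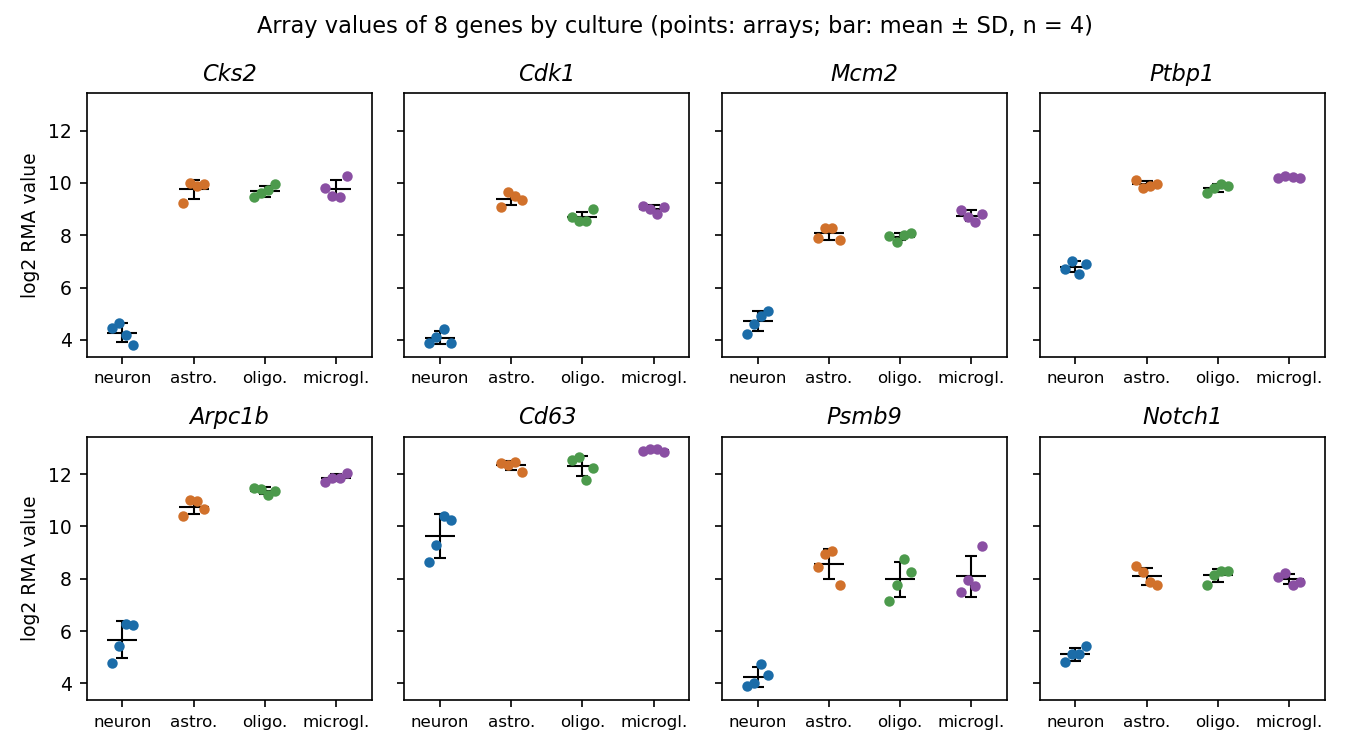
Log2 RMA values of 8 genes in the neuronal, astrocyte, oligodendrocyte and microglial cultures; points are arrays and bars the mean ± SD (n = 4). For Cks2, Cdk1, Mcm2, Ptbp1, Arpc1b, Cd63, Psmb9 and Notch1 the neuronal arrays lie below every glial array, and the neuronal arrays of Arpc1b (4.79 to 6.26) and Cd63 (8.64 to 10.41) spread most.

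DNA replication genes followed with smaller differences. Of 22 measured, 18 were called lower in neuronal cultures than in each glial culture and none higher, with a median difference of -1.34. All 6 subunits of the replicative helicase were among them. Mcm2 read 4.24, 4.60, 4.92 and 5.12 in neuronal arrays, against 7.82 to 8.29 in astrocyte, 7.74 to 8.09 in oligodendrocyte and 8.50 to 8.96 in microglial arrays, and no neuronal array reached a glial one. Mcm4 was the helicase gene nearest to the threshold, at 6.09 in neuronal and 7.24 in astrocyte cultures. Pcna, the sliding clamp, stayed bright in neuronal cultures, at 9.71 ± 0.10, against 11.33 in astrocyte, 11.53 in oligodendrocyte and 11.74 in microglial cultures (SD, n = 4). The 4 not called were Dnmt1, which copies DNA methylation (7.12 in neuronal and 7.25 in astrocyte cultures), the primase subunit Prim1 (7.76 in neuronal and 7.84 in astrocyte cultures), Tyms, dim in every culture (4.64 in neuronal and 4.69 in microglial cultures), and Mcm10 (4.87 in neuronal and 5.56 in astrocyte cultures).

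Regulators of the G1 phase were mixed. Of 15, 6 were called lower in neuronal cultures than in each glial culture, with a median of -0.84 over the list. The 6 held drivers and brakes of the cycle. The cyclin Ccnd1 read 6.24, 6.84, 8.48 and 8.68 in neuronal arrays, against 9.31 to 10.39 in astrocyte, 9.59 to 10.35 in oligodendrocyte and 9.87 to 10.50 in microglial arrays. The groups did not overlap, and neuronal arrays 3 and 4 stood above 1 and 2. Its partner kinase Cdk4 averaged 9.02 in neuronal and 10.12 in astrocyte cultures, and Ccne2 4.59 in neuronal and 6.10 in astrocyte cultures. The kinase inhibitors Cdkn1a and Cdkn2c averaged 8.56 and 5.63 in neuronal cultures, against 9.78 or more and 8.23 or more in each glial culture. Rbl1, a relative of the retinoblastoma protein, averaged 3.09 in neuronal and 5.63 in astrocyte cultures. Not called were Ccnd2, at 9.69 in neuronal and 9.09 in microglial cultures, Cdkn1b, at 9.78 in neuronal and 9.68 in microglial cultures, and Ccne1, at 7.52 in neuronal and 6.24 in astrocyte cultures, among 9 in all.

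Genes of the actin cytoskeleton and cell surface formed the next group. Of 25 measured actin and focal adhesion genes 13 were called lower in neuronal cultures than in each glial culture, with a median of -1.11. Arpc1b, a subunit of the complex that branches actin filaments, read 4.79, 5.43, 6.26 and 6.23 in neuronal arrays, against means of 10.75 ± 0.29 in astrocyte, 11.36 ± 0.13 in oligodendrocyte and 11.87 ± 0.15 in microglial cultures (SD, n = 4). Every neuronal array lay more than 4 units below every glial array. Its difference from the lowest glial culture was -5.07 ± 0.26 (SE), a 33.6-fold lower level. The capping protein Capg averaged 5.05 in neuronal, 8.75 in astrocyte, 10.89 in oligodendrocyte and 11.50 in microglial cultures. Moesin (Msn) and talin (Tln1), which tie actin to the membrane and to integrins, averaged 6.79 and 5.44 in neuronal cultures and at least 10.26 and 8.52 in each glial culture. Lima1, an actin cross-linker, averaged 5.19 in neuronal and 9.05 in microglial cultures. Contractile genes were divided. The myosin chains Myh9 and Myl12a were called, at 6.05 and 8.20 in neuronal cultures, while the tropomyosin Tpm1 was not. Tpm1 averaged 9.64 in neuronal, 12.20 in astrocyte, 8.23 in oligodendrocyte and 7.47 in microglial cultures.

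Of 17 integrins and matrix receptors 5 were called lower in neuronal cultures. Cd9, a tetraspanin of the cell membrane, read 4.90, 5.91, 6.61 and 6.46 in neuronal arrays, against 12.12, 11.93, 12.09 and 10.14 in astrocyte, 11.49 to 11.99 in oligodendrocyte and 10.23 to 10.65 in microglial arrays. Astrocyte array 4 was the lowest glial array. The common integrin chain Itgb1 averaged 7.65 in neuronal cultures and 10.48 or more in each glial culture, its partners Itgav and Itga6 5.52 and 5.62 in neuronal cultures and at least 7.80 and 7.0 in each glial culture, and the hyaluronan receptor Cd44 5.83 in neuronal and 8.63 in oligodendrocyte cultures. Of 14 S100 proteins and annexins, which bind calcium, 8 were called lower. S100a4 averaged 5.41 ± 0.32 in neuronal, 12.47 in astrocyte, 10.91 in oligodendrocyte and 9.61 in microglial cultures (SD, n = 4), while S100a6, at 4.55 in neuronal, 11.49 in astrocyte and 4.76 in microglial cultures, did not pass, being low in microglial cultures too. The 7 annexins called were Anxa2, Anxa3, Anxa4, Anxa5, Anxa6, Anxa7 and Anxa11. Anxa4 averaged 4.52 in neuronal, 8.72 in astrocyte, 9.15 in oligodendrocyte and 9.54 in microglial cultures. Anxa1 met the rule by its means (-1.39) but was not called. Of 9 intermediate filament and lamin genes only Lmna was called, at 7.68 in neuronal and 8.94 in oligodendrocyte cultures, and vimentin (Vim) was not, at 10.33 in neuronal and 11.12 in oligodendrocyte cultures.

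Lysosomal genes were lower in neuronal cultures in 20 of 23 measured cases, with a median of -2.0, and none was higher. Cd63, a membrane protein of late endosomes, read 8.64, 9.27, 10.41 and 10.23 in neuronal arrays, against 12.09 to 12.47 in astrocyte, 11.79 to 12.65 in oligodendrocyte and 12.86 to 12.96 in microglial arrays. The proteases Ctsc and Ctsd averaged 5.65 and 9.99 in neuronal cultures, and at least 9.09 and 11.43 in each glial culture. Grn, a secreted protein that lysosomes process, averaged 8.82 ± 0.12 in neuronal, 10.91 in astrocyte, 11.38 in oligodendrocyte and 13.02 in microglial cultures. The membrane proteins Lamp1 and Lamp2 averaged 9.68 and 8.89 in neuronal cultures and at least 10.96 and 11.08 in each glial culture. Psap, at 11.29 in neuronal and 11.81 in astrocyte cultures, Ctsb and Naglu were not called. The list mean was 8.08 in neuronal, 10.28 in astrocyte, 10.30 in oligodendrocyte and 11.72 in microglial cultures. Among its neuronal arrays, 1 and 2 (7.76 and 7.88) lay below 3 and 4 (8.32 and 8.38), the order of the astrocyte markers, whose part in these levels was not tested. Outside the list, the sphingomyelinase relative Smpdl3a, the ribonuclease Rnaset2 and Litaf, a late endosomal protein, lay 4.20, 3.85 and 4.00 below the lowest glial culture. Litaf read 5.86 and 6.14 in neuronal arrays 1 and 2 and 7.60 and 7.78 in arrays 3 and 4, against 10.62 or more in each glial array.

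Of 11 genes for class I antigen loading and the immunoproteasome 8 were called lower in neuronal cultures, with a median of -1.87. Psmb9, an immunoproteasome subunit, read 3.92, 4.03, 4.74 and 4.31 in neuronal arrays, against 7.77 to 9.06 in astrocyte, 7.15 to 8.74 in oligodendrocyte and 7.48 to 9.24 in microglial arrays. The second subunit Psmb8 averaged 4.26 in neuronal and 7.51 in oligodendrocyte cultures. B2m, the light chain of class I molecules, stayed well above background in neuronal cultures at 8.95, 10.02, 11.38 and 11.32, against 12.42 to 13.64 over all glial arrays. The list mean was 6.49, 6.57, 7.07 and 7.02 in neuronal arrays 1 to 4. Both B2m and the list mean followed the order of the astrocyte markers, whose part in these levels was not tested. The peptide transporter gene Tap1 averaged 5.14 in neuronal and 7.02 in microglial cultures, and its partner Tap2, at 4.40 in neuronal and 5.16 in oligodendrocyte cultures, was not called.

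Of 21 interferon, cytokine and NF-kB signalling genes 12 were called lower in neuronal cultures, with a median of -1.20. The NF-kB subunits Nfkb1, Nfkb2, Rela and Relb averaged 6.39, 5.03, 7.22 and 4.99 in neuronal cultures, and their inhibitor Nfkbia 6.28, and all 5 were called. The Toll-like receptor adaptor Myd88 read 5.31, 5.79, 5.03 and 5.39 in neuronal arrays, against 8.16 to 8.70 in astrocyte, 8.41 to 8.89 in oligodendrocyte and 9.33 to 10.24 in microglial arrays. The interferon factors Irf1 and Irf9 averaged 5.18 and 6.07 in neuronal cultures and at least 7.46 and 7.87 in each glial culture. Not all of the pathway was low. The kinase Jak1 averaged 9.95 in neuronal and 9.47 in oligodendrocyte cultures, and the receptor chain Ifnar1 7.63 in neuronal and 7.06 in oligodendrocyte cultures. The complement protein gene C3 read 5.37 to 5.82 in neuronal arrays, against 11.21, 11.50, 11.25 and 7.64 in astrocyte, 10.84 to 11.64 in oligodendrocyte and 9.39 to 12.48 in microglial arrays. Astrocyte array 4 stood apart from the other astrocyte arrays and still lay above every neuronal array. The chemokine Ccl2 averaged 5.03 in neuronal and 8.92 in microglial cultures.

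Some microglial markers were among the genes that met the rule. Of 15 microglial markers, 6 met the rule by their means, namely Ctss, Fcer1g, Cd68, C1qa, C1qb and C1qc, and 3 (Ctss, Fcer1g and Cd68) were called. The protease gene Ctss read 5.32 to 5.58 in neuronal arrays, against 5.80, 8.19, 8.21 and 5.69 in astrocyte, 10.27 to 11.99 in oligodendrocyte and 12.74 to 13.07 in microglial arrays. Only astrocyte arrays 2 and 3 stood clearly above the neuronal arrays. The leukocyte marker Ptprc averaged 3.82 in neuronal and 3.73 in astrocyte cultures. With astrocyte arrays 1 and 4 alone, a choice made after the values were seen, 993 genes met the rule. That choice left the oligodendrocyte arrays unchanged, where microglial markers averaged 8.43 to 9.44. The part of microglial transcripts in these counts was not tested. Of the other markers, the astrocyte enzyme gene Glul and the oligodendrocyte genes Cldn11 and Cnp were called lower in neuronal cultures than in each glial culture. Oligodendrocyte markers averaged 8.07 in microglial cultures, against 5.33 in neuronal cultures. The part of oligodendrocyte transcripts in calls against microglial cultures was not tested.

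Regulators of neuronal messages included some of the clearest members. Of 9 measured repressors of neuronal genes and splicing 5 were called lower in neuronal cultures. Ptbp1, which represses neuronal exons, read 6.71, 7.01, 6.53 and 6.90 in neuronal arrays, against 9.82 to 10.11 in astrocyte, 9.61 to 9.95 in oligodendrocyte and 10.18 to 10.25 in microglial arrays. Its glial cultures lay within 0.40 of each other and its neuronal arrays did not separate in pairs. Id1 and Id3, which block neurogenic helix-loop-helix factors, averaged 4.78 and 4.30 in neuronal, 10.89 and 11.66 in astrocyte, 8.41 and 8.33 in oligodendrocyte and 9.05 and 8.67 in microglial cultures. Their relatives Id2, at 11.72 in neuronal and 10.61 in oligodendrocyte cultures, and Id4 were not. Zfp36l1, which speeds decay of AU-rich messages, averaged 5.96 in neuronal and 10.11 in oligodendrocyte cultures, and Rcor1, a corepressor, 4.98 in neuronal and 6.16 in astrocyte cultures. Rest, the repressor with which Rcor1 acts, was not called. It was dim everywhere, at 4.27 in neuronal, 4.49 in astrocyte, 4.34 in oligodendrocyte and 4.51 in microglial cultures. Whether its probe set can show a higher level was not tested.

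In Notch signalling 4 of 12 genes were called lower in neuronal cultures. The receptor Notch1 read 4.81, 5.11, 5.12 and 5.43 in neuronal arrays, against 7.77 to 8.47 in astrocyte, 7.77 to 8.31 in oligodendrocyte and 7.77 to 8.21 in microglial arrays, and the 3 glial cultures overlapped fully. The nuclear partner Rbpj averaged 7.30 in neuronal and 9.82 in astrocyte cultures, the protease Adam17, which sheds membrane proteins, 5.76 in neuronal and 8.60 in astrocyte cultures, and the ligand Jag1 5.32 in neuronal and 6.49 in microglial cultures. The target Hes1 was not called, at 4.75 in neuronal, 6.98 in astrocyte and 4.32 in oligodendrocyte cultures. Of 15 TGF-beta and BMP genes the ligand Tgfb1, the receptor Tgfbr1 and the corepressor Tgif1 were called. Tgif1 averaged 4.79 in neuronal, 9.44 in astrocyte, 6.84 in oligodendrocyte and 8.66 in microglial cultures. Of 12 growth factor and phagocytic receptors Fgfr1, at 7.32 in neuronal and 9.19 in oligodendrocyte cultures, and Axl, at 5.51 in neuronal and 7.05 in oligodendrocyte cultures, were called. Tcf7l2, a Wnt transcription factor, averaged 4.47 in neuronal, 8.37 in astrocyte, 10.60 in oligodendrocyte and 8.42 in microglial cultures. It read 9.23, 8.56, 7.55 and 8.34 in microglial arrays 1 to 4. Oligodendrocyte markers had the same order there (8.67, 8.44, 7.23 and 7.96), and their part in this level was not tested.

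Metabolic lists differed among themselves. Of 15 fatty acid oxidation genes 7 were called lower in neuronal cultures, with a median of -0.61 over the list. Acadl, a long-chain dehydrogenase, averaged 6.74 in neuronal and 9.13 in oligodendrocyte cultures, and Cpt2, a carnitine transferase of mitochondria, 5.51 in neuronal and 7.15 in microglial cultures. The list mean was 6.10, 6.38, 7.17 and 7.08 in neuronal arrays 1 to 4, the order of the astrocyte markers, and with neuronal arrays 3 and 4 alone 3 genes were called. Of 19 glutathione and antioxidant genes 4 were called, with a median of -0.22. Their list mean was 8.14, 8.38, 9.10 and 9.02 in neuronal arrays 1 to 4, again the order of the astrocyte markers. The peroxidase Gpx1 averaged 9.36 in neuronal and 12.18 in oligodendrocyte cultures, the stress factor Nfe2l2 6.34 in neuronal and 8.90 in oligodendrocyte cultures, Hmox1, which breaks down haem, 6.98 in neuronal and 9.48 in astrocyte cultures and Gstp1 10.15 in neuronal and 11.50 in astrocyte cultures. Nfe2l2 read 5.17, 5.73, 7.27 and 7.22 in neuronal arrays. Of 6 pentose phosphate genes Pgd alone was called, at 8.40 in neuronal and 9.57 in astrocyte cultures. Of 13 apoptosis genes Casp6, Casp8, Mcl1 and Pycard were called lower and the caspase inhibitor Cflar higher, at 7.15 in neuronal and 5.87 in oligodendrocyte cultures. Of 10 sterol synthesis genes none was called lower; the list mean was 10.29 in neuronal, 7.86 in astrocyte, 10.50 in oligodendrocyte and 7.69 in microglial cultures.

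**Figure D3:**
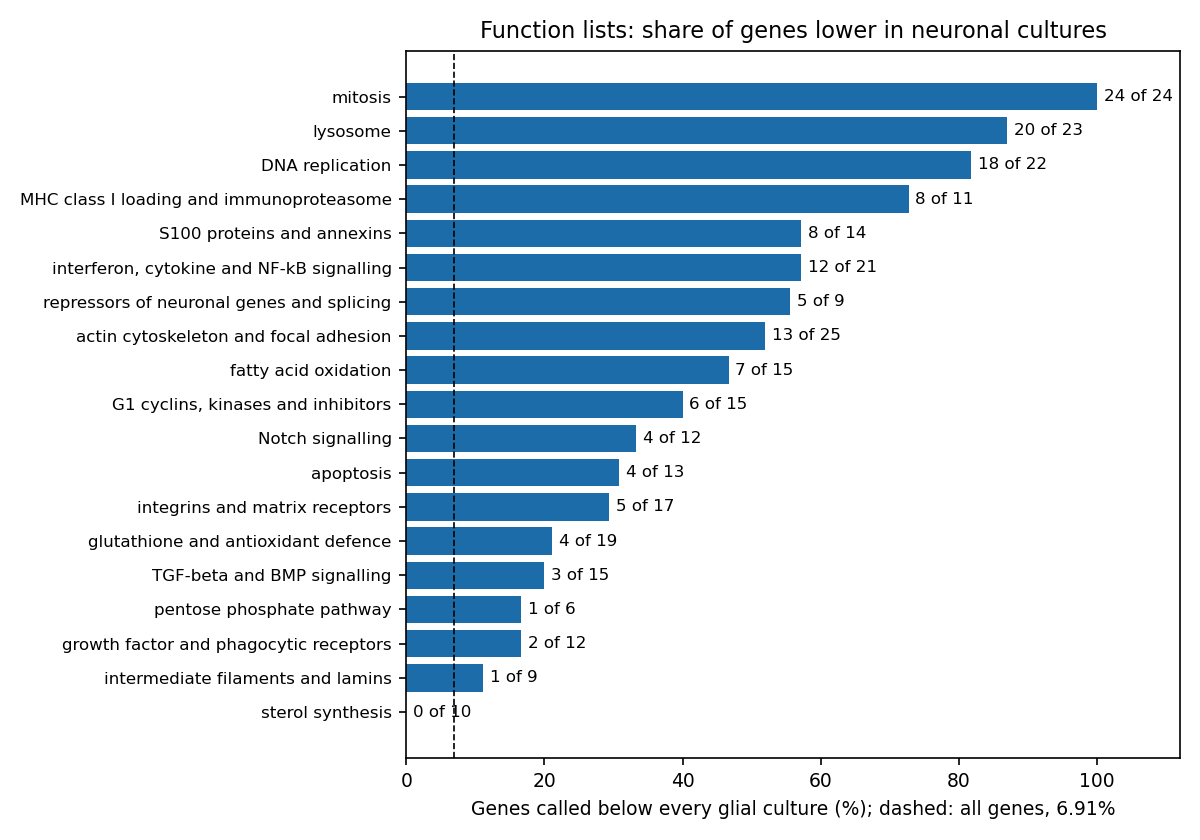
Share of each function list's measured genes that were called lower in neuronal cultures than in every glial culture (horizontal axis, percent; limma, adjusted p under 0.05 and a difference of at least 1 in all 3 contrasts), with counts beside the bars. The dashed line marks 6.91% of all genes. The shares run from 24 of 24 mitosis genes to 0 of 10 sterol synthesis genes. The lists were chosen with earlier results of these data known, so the shares describe the lists and test no enrichment.

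Over the 19 function lists together 145 of 291 measured genes were called, against 983 of all 14217 genes (6.91%). The lists were chosen with earlier results of these data known, so the pooled share is no test of these functions. The 3 contrasts behind each call share the neuronal arrays. Lower levels in neuronal cultures were called for 2420 genes against astrocyte cultures (17.0% of all genes), for 2114 against oligodendrocyte cultures (14.9%) and for 2315 against microglial cultures (16.3%), and 1168 genes were called higher than in every glial culture.

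The neuronal arrays fell into a pair of pairs. The median of the 1015 genes was 5.56, 5.62, 5.97 and 5.91 in neuronal arrays 1 to 4, against 8.09 to 8.30 in astrocyte, 8.09 to 8.24 in oligodendrocyte and 8.33 to 8.64 in microglial arrays. Neuronal arrays 3 and 4 both exceeded arrays 1 and 2 for 523 of the 1015 genes (51.5%), as for 30.5% of all genes, and both lay below them for 138 (13.6%), as for 29.8% of all genes. The mean of S100 proteins and annexins was 6.19, 6.27, 6.91 and 6.92 in neuronal arrays 1 to 4. That of actin genes was 7.24, 7.36, 7.78 and 7.76. The sterol synthesis mean went the other way (10.70, 10.47, 9.93 and 10.08). The TGF-beta and BMP mean did not separate the pairs (6.15, 6.11, 6.14 and 6.16). The 6 genes with the largest spread over neuronal arrays were Fgl2, Decr1, Gramd2b, Prkcq, Smpdl3a and Ccnd1, and each was low in arrays 1 and 2. Fgl2, a secreted fibrinogen-like protein, read 4.19, 4.44, 6.83 and 7.03 in neuronal arrays, against 8.95, 8.06, 8.01 and 5.84 in astrocyte, 8.61 to 11.60 in oligodendrocyte and 7.78 to 9.61 in microglial arrays. Here neuronal arrays 3 and 4 lay above astrocyte array 4. With neuronal arrays 1 and 2 alone 1143 genes met the rule, and with arrays 3 and 4 alone, a choice made after the values were seen, 959. The part of astrocyte or oligodendrocyte precursor transcripts in this split was not tested.

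**Figure D4:**
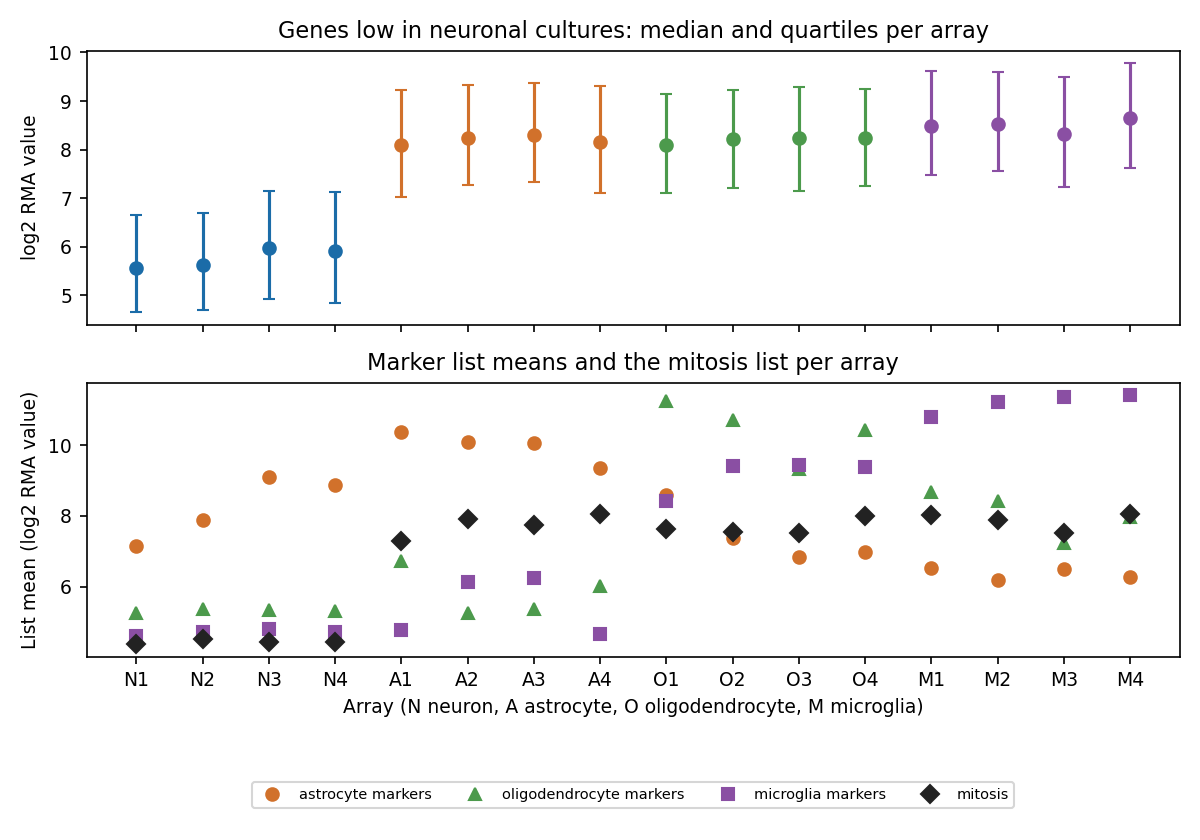
Upper panel: median (point) and quartiles (bar) of the 1015 genes in each of 16 culture arrays (log2 RMA value). Lower panel: mean log2 RMA value of the astrocyte, oligodendrocyte and microglial marker lists and of the mitosis list in the same arrays. Astrocyte markers differ between neuronal arrays 1 (7.15) and 3 (9.11), while the mitosis list stays between 4.39 and 4.53 in all 4 neuronal arrays. The mitosis values there lie below 5.25, where background compresses differences.

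The RNA mixtures gave arrays that the rule did not use, although they were made from RNA of neuronal cultures 1 and 2 and astrocyte cultures 1 and 4, so they repeat the measurement and not the biology. Neuronal RNA made up a fraction of 0.25 in NA1, 0.5 in NA2 and 0.75 in NA3, with astrocyte RNA as the rest. The median of the 1015 genes in replicates 1 and 2 was 7.61 and 7.52 in NA1, 7.19 and 7.08 in NA2 and 6.50 and 6.62 in NA3. More neuronal RNA thus went with a lower level in both replicates. Fraction-weighted sums of the parent arrays gave 7.79 and 7.85, 7.39 and 7.45, and 6.77 and 6.89 for the same mixtures, and observed values lay a median of 0.12 to 0.33 below such sums over all 10 mixture arrays, against 0.07 to 0.16 over all genes. Between NA1 and NA3 the median change was -1.10 in replicate 1 and -0.93 in replicate 2, where a transcript absent from neuronal RNA would change by -1.58 from dilution, and the median change of all genes was -0.02 and 0.01. Of the 1015 genes 1004 were lower in NA3 in replicate 1 and 993 in replicate 2. The share of all genes that were lower was not counted, so these counts have no background beside them. The rule used the arrays of the parent cultures, so the counts follow largely from the choice of genes.

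In a limma fit of the slope on neuronal fraction over these 6 arrays, 508 of the 1015 genes fell at an adjusted p under 0.05, as did 7.69% of all genes. With the replicate, which marks shared parents, as a block the count was 896. The share of all genes called with the block was not counted, so 896 has no background beside it. The median slope was -1.98 per unit of fraction, against -0.02 over all genes. The steepest slopes were those of Fam111a, whose human counterpart is a protease of replication forks, Soat1, which esterifies cholesterol, Ect2, the kinase Stk17b, Lcat, which esterifies plasma cholesterol, and the transcription factor Mybl1. Fam111a read 6.54 and 7.09 in NA1, 5.90 and 6.41 in NA2 and 4.64 and 4.96 in NA3, a slope of -4.04 (limma adjusted p = 0.00757, and 0.00101 with the block). Lcat read 10.18 and 9.07 in NA1, 9.50 and 8.09 in NA2 and 8.42 and 7.07 in NA3, with a slope of -3.76 that was called with the block only (limma adjusted p = 0.113, and 0.000981 with it). Replicates made from different astrocyte cultures differed where those cultures did. C3, dim in astrocyte array 4, read 10.63 and 6.70 in NA1, 10.21 and 6.21 in NA2 and 9.13 and 5.86 in NA3, so its slope of -2.34 was called with the block only (limma adjusted p = 0.764, and 0.00544 with it).

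**Figure D5:**
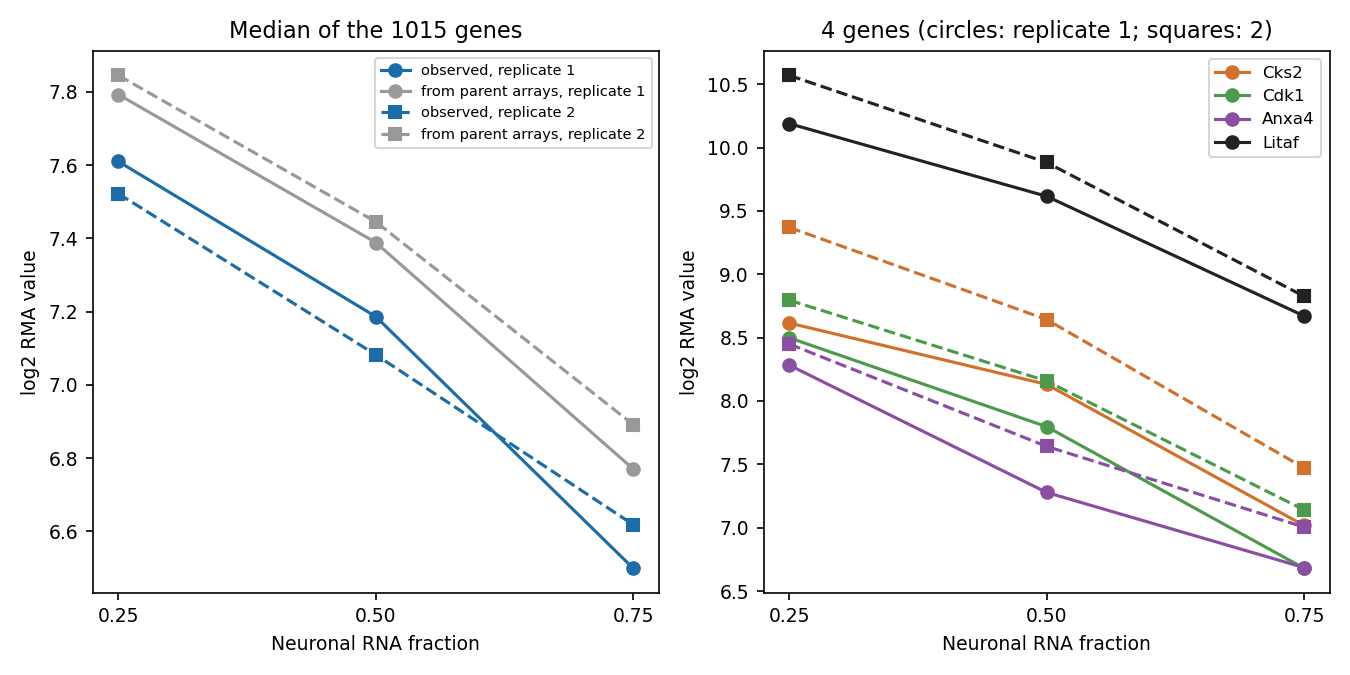
Left: median log2 RMA value of the 1015 genes against the neuronal RNA fraction in mixtures NA1, NA2 and NA3, as observed and as the fraction-weighted sum of the parent arrays, for replicates 1 (solid, circles) and 2 (dashed, squares). Right: log2 RMA values of Cks2, Cdk1, Anxa4 and Litaf in the same mixtures; all lines fall with the neuronal fraction, for Cks2 to 7.02 and 7.47 in NA3, against 8.62 and 9.37 in NA1.

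Adding other glial RNA left the neuronal fraction at 0.5 in NAO, with oligodendrocyte RNA, and in NAOM, with oligodendrocyte and microglial RNA. The median of the 1015 genes was 7.30 and 7.32 in NAO and 7.37 and 7.34 in NAOM, against 7.19 and 7.08 in NA2 at the same neuronal fraction. The lysosomal protein gene Litaf read 9.69 and 9.87 in NAO and 9.89 and 10.02 in NAOM, against 9.62 and 9.88 in NA2.

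Further probe sets of the same genes gave a check on probes that the rule did not use, on the same arrays. Among the 1015 genes 347 had 507 other probe sets, all dimmer by the rule that chose the brightest. Of these 165 were called lower in neuronal cultures than in each glial culture by limma, as were 3.46% of the 6609 other probe sets of all genes, and 2 were called higher than in each. Their median difference from the lowest glial culture was -0.58, and 159 of them lay below 5.25 in every culture mean. Per probe set, 1478 of 31042 met the rule (4.76%), 223 of which carried no single gene symbol, and limma called 1424 (4.59%).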

How the data were processed

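Total RNA from 16 primary cultures and 10 RNA mixtures was hybridised to Affymetrix arrays. The deposited log2 values were made by the authors with RMA in the affy package, per the submitters' processing notes, which give no version; whether cultures and mixtures were normalized together is not given in the sources used here. The array holds 31099 probe sets; the 57 controls were set aside, and limma ran on the other 31042, dim ones included. A single gene symbol was given for 20826 probe sets, several for 436 and no symbol for 9780, and 20758 were matched to the GRCr8 annotation by gene identifier with 0 symbols changed. Each of 14217 genes was represented by its probe set with the highest mean over 26 arrays. The array medians lay between 5.25 and 5.31 in cultures and between 5.33 and 5.41 in mixtures. The number of arrays limits the precision.

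Groups followed the titles and cell types. One mean per culture was fitted over 16 arrays by lmFit and eBayes of limma 3.58.1 under R 4.3.3, and p-values were adjusted by Benjamini-Hochberg over all probe sets of a contrast. A call needed an adjusted p under 0.05 and a difference of at least 1 in all 3 contrasts of neuronal with another culture. The slope on neuronal fraction was fitted over 6 mixture arrays. All members, the 19 function lists and the 7 marker lists were chosen with earlier results of these data known. Genes were named by rule: the 25 largest differences from the lowest glial culture, the 15 largest among genes with even glial means, 4 on each side of the threshold, the 6 steepest slopes, the 6 largest neuronal spreads and genes of the lists; genes of symbol families and of chromosomal runs, and those with printed promoters, were chosen after their values were seen.

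Replicate numbers did not pair the cultures (r of same-numbered residuals -0.107 to 0.178 over 24 pairs, 5 above 0.1) and did pair the mixtures, whose labels name shared parents (0.381 to 0.873 over 10 pairs). Alternatives were leaving out each array, a replicate block, other minima, normalizations, variance models, probe set rules and subsets of arrays. Python 3.11.15, pandas 2.3.3, numpy 2.4.6 and matplotlib 3.10.9 were also used.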

Additional observations from a re-analysis of the deposited data

Results flagged for a closer look

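Single arrays that stood apart from the other 3 of their group were sought among 280 groups of 4 arrays (named genes and list means) with Dixon's criterion for an outlying value. It picked out 23, where chance gives about 1 in 20 groups.

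Astrocyte array 4 accounted for most of them. In that array Zfp36l1 stood low at 10.98 (12.08 to 12.13 in the other astrocyte arrays), Lgals3 at 10.26 (11.95 to 11.98), Cd9 at 10.14 (11.93 to 12.12), C3 at 7.64 (11.21 to 11.50) and Ggta1 at 7.54 (9.17 to 9.48). The lysosomal genes Smpdl3a and Rnaset2 stood low there at 10.01 (10.85 to 10.93) and 9.97 (10.87 to 11.03), and the fatty acid oxidation gene Decr1 at 9.96 (11.01 to 11.09). The antioxidant list mean was low there at 9.83 (10.20 to 10.27) and the fatty acid oxidation list mean at 7.99 (8.54 to 8.59). The actin cross-linker Lima1 was high there at 9.70 (8.80 to 8.87), as was the mean of the fibroblast and meningeal markers at 8.44 (6.29 to 6.37). Without this array 1030 genes met the rule.

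Astrocyte array 1 was low for Cks2 at 9.23 (9.88 to 9.99), for Ier3 at 10.84 (11.34 in each of the others) and for the G1 list mean at 7.80 (8.06 to 8.09), and high for Lcat at 10.77 (9.33 to 9.42). Of the oligodendrocyte arrays, array 4 was high for Ect2 at 8.42 (7.78 to 7.89), array 3 was low for Ccnd1 at 9.59 (10.35 in each of the others, to 2 decimals) and high for the apoptosis list mean at 7.09 (6.58 to 6.61), and array 1 was low for the microglial markers at 8.43 (9.37 to 9.44). Microglial array 3 was low for Top2a at 8.89 (9.18 to 9.23) and microglial array 4 for Litaf at 11.15 (11.51 to 11.54). In the neuronal cultures array 3 was high for Smim11 at 7.35 (6.92 to 6.96).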

How the results depend on the processing

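With a minimum difference of 0.5 in place of 1, 2042 genes and 3094 probe sets met the rule and limma called 2733 probe sets; with 2, the numbers were 321, 439 and 435. The other alternatives gave 773 to 1143 genes, lowest where every probe set of a gene had to pass and highest with neuronal arrays 1 and 2 alone. Leaving out each array gave 982 to 1057 genes, 1416 to 1545 probe sets and 1345 to 1467 called probe sets, against 1015, 1478 and 1424. A replicate block, though the numbers do not pair the cultures, gave 1421 called probe sets and left the 165 other probe sets of the genes at 165. The 508 genes that fell with the neuronal fraction became 896 with the replicate block and 328 on linear values. They became 280 to 421 when 1 array was left out, among them 296 without NA3 replicate 1 and 280 without NA3 replicate 2. Of these counts only the 508 has a share over all genes beside it, and the cause of the changes was not tested. The 26 genes named for the largest differences (all genes, or those with even glial means) kept direction and call in all 728 comparisons. They were chosen for large differences in the same arrays, far from the threshold, so this follows largely from the choice. List counts stayed within 1.5 times in 509 of 532. Without oligodendrocyte array 3, 2 apoptosis genes were called, and without astrocyte array 4 no pentose phosphate gene. The values used carry no detection calls, so for dim probe sets a neuronal level cannot be told from background, which may shrink a difference.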

Other observations

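Gene families, taken as symbols with the same letters before the first digit and at least 8 measured genes, numbered 255, and 133 of them held no gene that met the rule. The annexins held the largest share, 8 of 10 measured genes, followed by Cdca genes of cell division, 5 of 8, and Mcm genes, 6 of 10. Parp genes, which add ADP-ribose to proteins, gave 5 of 11, namely Parp4, Parp9, Parp10, Parp12 and Parp14, and interferon regulatory factors 4 of 10. Kinesins, the motors of microtubules, split: 10 of 27 met the rule and 4 were called higher in neuronal cultures than in every glial culture. No gene met the rule among 46 Mrpl genes, 27 Mrps genes or 29 Polr genes. Such stems join some genes that are no relatives, and the families were counted after the values were seen.

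Along the chromosomes there were 13 runs of at least 3 measured neighbours that all met the rule. On chromosome 11 the ubiquitin ligase gene Dtx3l and its neighbours Parp9 and Parp14 averaged 3.78, 4.40 and 5.07 in neuronal cultures, and no less than 7.09, 8.09 and 7.42 in any glial culture. On chromosome 10 the Schlafen genes Slfn2, Slfn4 and Slfn9 averaged 5.30, 4.24 and 4.58 in neuronal cultures, against 6.37, 6.31 and 7.55 in the lowest glial culture. Other runs held Psmb8, Tap1 and Psmb9 on chromosome 20 and Ch25h, Lipa, Ifit2 and Ifit3 on chromosome 1. The share of measured genes that met the rule ran from 4.49% on the X chromosome (20 of 445) to 9.78% on chromosome 2 (91 of 930) among the autosomes and the X. No test was run on runs or shares, and neighbours with related sequence can share array signal.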
